A study of Homo sapiens with 6 samples.

Results

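Keratin genes were examined in RNA-seq data of 2 human mammary cell lines treated with decitabine (5-aza-2'-deoxycytidine, DAC), an inhibitor of DNA methylation. The keratins were taken as all gene symbols made of KRT, a number and at most 1 letter, which leaves out the keratin-associated proteins (KRTAP), and no expression filter was applied. The series held 56 such genes among 23618 symbols, of which 29 lay on chromosome 17 and 27 on chromosome 12. Among them, KRT222 and KRT42P, the latter named as a pseudogene, belong to none of the role groups used below. MDA-MB-231, a line derived from human breast cancer, was represented by 1 DAC-treated and 1 untreated library. HMLER, obtained by transforming human mammary cells in vitro, was represented by 2 DAC-treated and 2 untreated libraries. Treated cells of both lines received 10 µM DAC, renewed daily, and were collected at 72 h. No agent is named for the untreated cells. The cell line label of the untreated MDA-MB-231 library reads MDA-MB-232, whereas its title reads MDA-MB-231, and the title was followed. Each library came from RNA pooled over independent extractions, so the spread between cultures was not visible in MDA-MB-231.

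Keratins are the intermediate filament proteins of epithelial cells. A filament is built from dimers that pair 1 acidic type I keratin with 1 basic or neutral type II keratin, and in the human genome the type I genes form a cluster on chromosome 17 and the type II genes a cluster on chromosome 12. KRT18 is the exception, being a type I gene that lies next to its type II partner KRT8 on chromosome 12. In the breast, KRT8, KRT18, KRT7 and KRT19 are known as keratins of luminal cells, and KRT5, KRT14 and KRT17 as keratins of basal and myoepithelial cells, while the hair keratins are best known from the hair shaft.

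Expression was given as FPKM, the fragments of a transcript scaled by its length and by the mapped fragments of the library. The MDA-MB-231 table held 43497 transcripts of 23617 symbols, 64 of them keratin transcripts, each with a value for either library and the lower and upper bounds computed by Cuffdiff. The HMLER table held a single value per condition, merged over its 2 libraries, for 2009 transcripts of 1854 symbols that were all higher after DAC by 2-fold or more and reached 1 FPKM in the treated cells. HMLER keratins outside this list, lower ones included, were not analysed here. With 1 value per condition in either table no test between conditions was possible, and no p-value is given. Low MDA-MB-231 values were multiples of a fixed step, the worth of a single read, which for a transcript of 1 effective kilobase was 0.0235 FPKM untreated and 0.0236 FPKM after DAC. On this scale the libraries were of like depth, near 42600000 fragments untreated and 42400000 after DAC, and the reads behind a value could be inferred for keratins with a single transcript. Ratios of such reads carry an exact 95% interval (Clopper-Pearson), which covers counting error only and treats reads as independent molecules. Across the 11057 symbols with 1 FPKM or above in either library alike, DAC divided by untreated had a median of 0.908 (log2 −0.14).

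Promoter sequence was at hand for 34 of the 56 keratins (38 windows of 300 bases from RefSeq, GRCh38.p14). These windows were poor in CG dinucleotides, the site of the methylation that DAC lowers. They held a median of 2 CG per window, against 14 in the 35116 windows of all genes. Only 5 of the 34 keratins were at 1 FPKM or more in MDA-MB-231 or listed in HMLER. The median therefore does not describe the keratins that were higher after DAC. The letters TATAAA, starting 40 to 20 bases before the gene start on the gene's strand, were found in 16 of the 38 keratin windows (42.1%) and in 809 of all windows (2.30%). Of the 14 hair keratins with a window, 8 held them. A match of letters is not evidence of a site in use. The 4 windows shown belong to 4 of the 5 keratins at 1 FPKM or more in MDA-MB-231 or listed in HMLER that had a window. They were set by the sequence at hand and not by the size of a change. They give the 250 bases before the gene start, each 5′ to 3′ on the minus strand, which is the strand of all 4 genes, and were placed on GRCh37, the assembly of hg19, by exact match. Capitals mark each CG and each TATAAA. The windows are KRT34 at chr17:39538559-39538808, KRT10 at chr17:38978867-38979116, KRT5 at chr12:52914179-52914428 and KRT79 at chr12:53228096-53228345.
KRT34: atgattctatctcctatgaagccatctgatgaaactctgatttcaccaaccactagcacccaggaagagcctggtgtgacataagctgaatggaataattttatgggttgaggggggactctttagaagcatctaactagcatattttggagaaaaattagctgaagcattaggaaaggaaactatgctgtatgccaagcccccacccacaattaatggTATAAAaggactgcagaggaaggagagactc
KRT10: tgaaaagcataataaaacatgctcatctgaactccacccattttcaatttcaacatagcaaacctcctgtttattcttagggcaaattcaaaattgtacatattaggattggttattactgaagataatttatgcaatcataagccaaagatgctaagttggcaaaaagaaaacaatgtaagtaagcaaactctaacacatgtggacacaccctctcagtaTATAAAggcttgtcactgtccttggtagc
KRT5: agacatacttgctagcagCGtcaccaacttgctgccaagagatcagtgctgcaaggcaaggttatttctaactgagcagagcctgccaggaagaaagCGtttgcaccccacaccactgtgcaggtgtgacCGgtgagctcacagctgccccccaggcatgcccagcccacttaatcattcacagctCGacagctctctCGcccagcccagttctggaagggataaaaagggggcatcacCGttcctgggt
KRT79: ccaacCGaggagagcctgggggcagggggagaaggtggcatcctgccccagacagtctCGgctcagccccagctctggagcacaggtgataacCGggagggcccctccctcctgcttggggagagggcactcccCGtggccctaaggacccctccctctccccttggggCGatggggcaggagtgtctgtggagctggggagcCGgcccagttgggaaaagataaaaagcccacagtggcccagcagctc
The hair keratin KRT34 and the epidermal keratin KRT10 had TATAAA at −31 and −29, and no CG in these 250 bases. KRT5 and KRT79 had 6 CG each and no TATAAA. For KRT5 and KRT34 the locus given in the expression table ends inside the window shown, and for KRT10 the window lies wholly within the locus, so these windows may be transcribed in part or whole from another start. Promoters of KRT7, KRT15, KRT18, KRT19, KRT80 and KRT81, and of KRT6A, KRT14, KRT16, KRT17 and KRT86, were not analysed here. That of KRT8, which has several transcripts, is not shown.

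In untreated MDA-MB-231 cells the keratin signal was almost entirely KRT8 and KRT18, the pair of simple epithelia. Both stayed near their level after DAC, while KRT7, KRT19, KRT81 and KRT34 were higher by more than 2-fold. Of the 56 keratins, 9 reached 1 FPKM in the untreated library, the treated library or both. Of these, 4 were more than 2-fold higher after DAC, against 11.5% of the 12396 symbols past the same filter. KRT19, KRT81 and KRT34 passed this filter only through the treated library, which favours a higher call. None of the 9 was more than 2-fold lower, against 5.86% of symbols. The bounds of both libraries did not overlap for KRT7, KRT19 and KRT81, 3 of the 9 keratins (33.3%). Of the 12396 symbols, 1.06% were more than 2-fold higher without such overlap. Because these are counts from 1 library per condition, they describe the libraries and carry no replicate error. In such bulk RNA, more RNA per cell and more cells expressing a gene cannot be told apart.

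Of the simple-epithelial keratins, KRT18 (NM_000224) was the highest keratin in both libraries, with 171 FPKM untreated (bounds 41.3 to 300.02) and 161 FPKM after DAC (bounds 40.8 to 281), a ratio of 0.943. Its partner KRT8 was spread over 4 transcripts, and the leading one (NM_002273) measured 72.4 FPKM untreated (bounds 0 to 156) and 79.3 FPKM after DAC (bounds 2.53 to 156), a ratio of 1.10. Neither difference exceeded the bounds. Summed over its 4 transcripts KRT8 went from 154 to 141 FPKM, and 1 of them, NM_001256293, had a ratio of 0.493, from 16.0 to 7.89 FPKM, with wide bounds that overlapped. The table gives KRT8 and KRT18 a common locus (chromosome 12, 53290971 to 53346685, hg19), and 39.0% of the 50-base windows of KRT8 and 35.1% of those of KRT18 also occur in another keratin gene or pseudogene, so reads of these genes may be shared with copies. The pair together made up 89.1% of the summed keratin FPKM in the untreated library and 74.9% after DAC. The other 54 keratins summed to 40.2 FPKM untreated and 102 FPKM after DAC over all transcripts.

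KRT7, a type II keratin of ductal and glandular epithelia (chromosome 12, 52626954 to 52642709), measured 6.58 FPKM untreated (bounds 1.40 to 11.8) and 33.8 FPKM after DAC (bounds 17.6 to 50.03). The change, from 420 to 2145 inferred reads, was 5.14-fold with a counting interval of 4.63 to 5.72. KRT7 was thus already present before treatment and was the keratin with the most added FPKM. KRT19, the smallest keratin and a type I partner in luminal cells (chromosome 17, 39679869 to 39684641), was close to absent before treatment with 28 inferred reads, and had 725 after DAC. The ratio of these reads was 26.1 (17.9 to 39.5). KRT80, an epithelial type II keratin next to KRT7 on chromosome 12, differed little, with 10.9 FPKM untreated (bounds 5.13 to 16.7) and 12.9 FPKM after DAC (bounds 5.86 to 19.9) for its leading transcript. Its other transcript went from 2.08 to 4.56 FPKM, a ratio of 2.19, with bounds that overlapped. The remaining simple-epithelial keratins, KRT20 of intestinal and urothelial cells and KRT23, stayed under 1 FPKM.

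**Figure D1:**
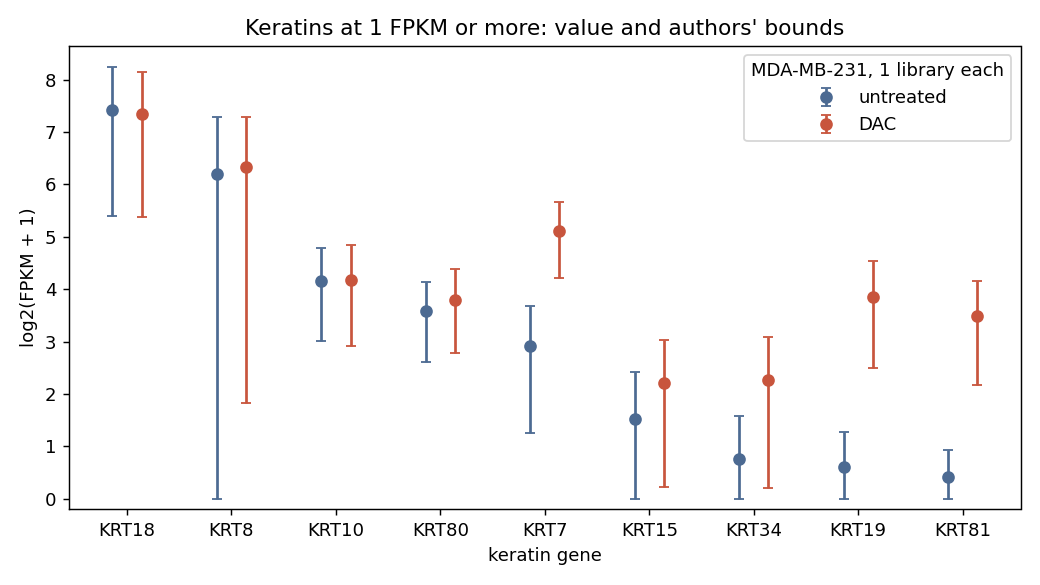
Level of the 9 keratins that reached 1 FPKM in MDA-MB-231, as log2(FPKM + 1), for the untreated (blue) and the DAC-treated (red) library, with 1 library each. Points are the FPKM of the leading transcript and bars run between the bounds that Cuffdiff gives; the bars of KRT7, KRT19 and KRT81 do not meet, while those of KRT18, KRT8, KRT10 and KRT80 largely coincide.

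Of the stratified-epithelial keratins, 2 of 21 reached 1 FPKM in MDA-MB-231 and neither passed the 2-fold threshold. KRT10, known from the upper layers of the epidermis, measured 16.8 FPKM untreated (bounds 7.03 to 26.5) and 17.1 FPKM after DAC (bounds 6.56 to 27.7), a ratio of 1.02. KRT15, a type I keratin of basal cells, measured 1.86 FPKM untreated (bounds 0 to 4.38) and 3.65 FPKM after DAC (bounds 0.167 to 7.13). At 130 and 253 inferred reads its ratio was 1.96 (1.58 to 2.44), just under the threshold, and the bounds overlapped. The basal pair KRT5 and KRT14 was barely detected, with 1 and 0 reads for KRT5 and 0 and 3 reads for KRT14. KRT6A, KRT6B and KRT6C, keratins of activated and wounded epidermis, were at 0 in both libraries.

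Of the 17 hair keratins, 12 were above 0 and 11 of these were higher after DAC at any ratio, most of them under 1 FPKM, a range in which 80.9% of all symbols were higher. Summed over the 17 the level was 1.42 FPKM untreated and 15.4 FPKM after DAC, of which KRT81 and KRT34 made up nearly all. KRT81, a type II hair keratin (chromosome 12, 52679697 to 52685299), measured 0.330 FPKM untreated (bounds 0 to 0.918) and 10.2 FPKM after DAC (bounds 3.50 to 16.9). Its 24 and 736 inferred reads gave a ratio of 30.9 (20.6 to 48.5), the highest among the 9 keratins past the filter. KRT34, a type I hair keratin (chromosome 17, 39533921 to 39538636), measured 0.684 FPKM untreated (bounds 0 to 1.98) and 3.82 FPKM after DAC (bounds 0.150 to 7.49). The bounds of KRT34 overlapped, although its 44 and 244 inferred reads gave a ratio of 5.58 (4.04 to 7.88). KRT86, beside KRT81 in the type II cluster, stayed under 1 FPKM at 9 and 56 reads, a ratio of 6.26 (3.07 to 14.4). KRT81 and KRT86 are near copies, and 38.4% of the 50-base windows of KRT81 also occur in KRT86, so the division of reads between them is uncertain.

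Under 1 FPKM, 22 keratins were above 0 in at least 1 library, and 20 of them were higher after DAC (90.9%). Of all 6200 symbols in that range 80.9% were higher, so most low genes of the table moved in this direction and the share among keratins was near it. The 21 of them with a single transcript held 34 inferred reads in all before treatment and 196 after, with 56 as the most for any gene, and 15 had fewer than 10 reads in both libraries. The interval of the read ratio lay above 1 for 7 of the 21. The share of all low symbols with such an interval was not computed, so this count does not set keratins apart. KRT79, a keratin of the upper hair follicle and sebaceous duct, had 0 and 22 reads. Its counting interval had a lower limit of 5.51. With the untreated count set to a floor of 3, the ratio was 7.38. KRT17 had 0 and 17 reads, with a lower limit of 4.15 and a ratio to the same floor of 5.70. KRT9, the keratin of palms and soles, had 0 and 12 reads (lower limit 2.80, ratio to the floor 4.03). KRT20 had 0 and 9 (lower limit 1.99, ratio to the floor 3.02). KRT12, the corneal keratin, had 0 and 8 (lower limit 1.72, ratio to the floor 2.68). The floor is a setting, so the ratios to it are not lower limits. The hair keratin KRT32 had 7 and 21 reads, a ratio of 3.02 (1.24 to 8.41). These 6 genes and KRT86 are the 7 named by the interval. KRT40 had 9 and 13 reads, and its interval of 0.575 to 3.85 did not separate the libraries. The pattern was thus made of few reads per gene, and for most of these keratins no difference was detectable at this depth. A further 25 keratins (44.6%) were at 0 in both libraries, against 21.3% of all symbols, among them all 9 keratins of the inner root sheath and companion layer of the hair follicle.

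**Figure D2:**
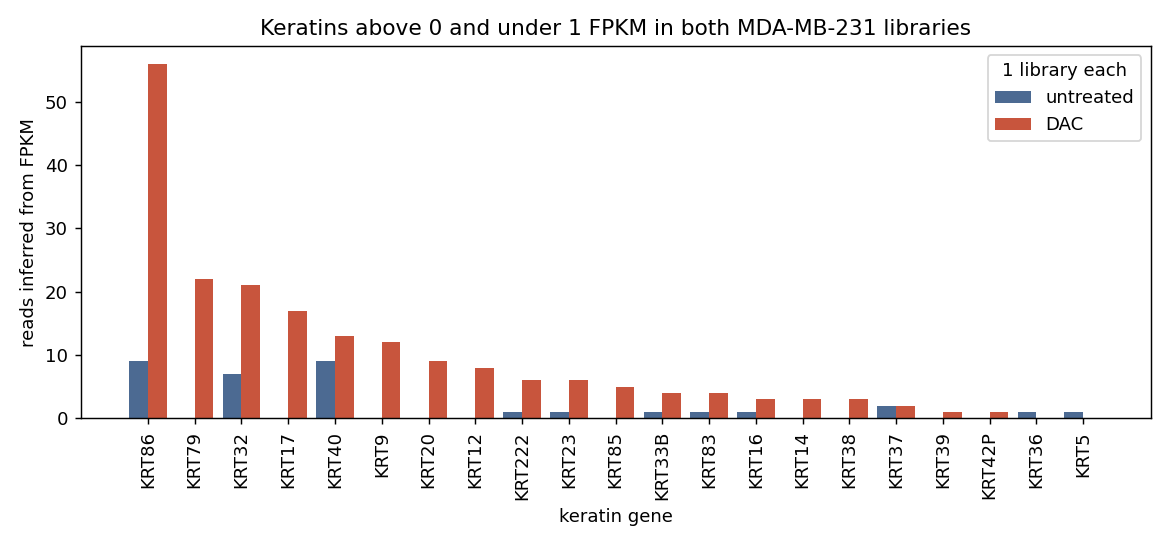
Reads inferred from FPKM for the 21 single-transcript keratins above 0 and under 1 FPKM in both MDA-MB-231 libraries (untreated in blue, DAC in red, 1 library each). Bars start at 0; KRT86 leads with 9 and 56 reads, and most genes have fewer than 10 reads in either library.

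The order of genes along the chromosomes was then followed. On chromosome 12 the consecutive genes KRT7, KRT81, KRT86, KRT83 and KRT85 had higher values after DAC. The counting interval of the ratio lay above 1 for KRT7, KRT81 and KRT86 but not for KRT83, at 1 and 4 reads, or KRT85, at 0 and 5. From KRT84 to KRT4 the genes were at 0 in both libraries except for the single read of KRT5. The genes above 0 thus lay, apart from this read, at both ends of the type II cluster. On chromosome 17 the genes above 0 were more scattered, with the neighbours KRT15 and KRT19 lying apart from KRT34 across a run of genes under 1 FPKM. Of the chromosome 17 keratins 21 of 29 were above 0, and 20 of these were higher after DAC. Of the chromosome 12 keratins 10 of 27 were above 0, and 7 of these were higher with the transcripts of a symbol summed, KRT8 being lower on that measure and higher by its leading transcript. Most of these genes were low, a range in which 80.9% of all symbols were higher. Keratins at or above 1 FPKM passed the threshold in equal numbers, 2 of 4 on chromosome 17 and 2 of 5 on chromosome 12.

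Summed over leading transcripts, the chromosome 17 keratins went from 20.2 to 39.8 FPKM, a ratio of 1.97 (counting interval 1.85 to 2.10). The chromosome 12 keratins went from 261 to 298 FPKM, a ratio of 1.14 (1.12 to 1.17). With all transcripts of each chromosome 12 keratin summed, the ratio was 1.06, outside this interval. The interval does not cover the choice of transcript, so no rise is read from it. For KRT10, KRT8 and KRT18, the largest members of the sums, whole reads could not be inferred. The counting intervals of both sums therefore do not cover the uncertainty of these values. Each sum was ruled by its highest members. Without KRT10 the chromosome 17 ratio was 6.65, and without KRT8 and KRT18 the chromosome 12 ratio was 3.22. Counting KRT18 by its protein type, with chromosome 17, gave 1.05 for type I and 1.52 for type II. The order of the ratios therefore depended on where KRT18 was placed and neither type was set apart from the other by these sums.

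**Figure D3:**
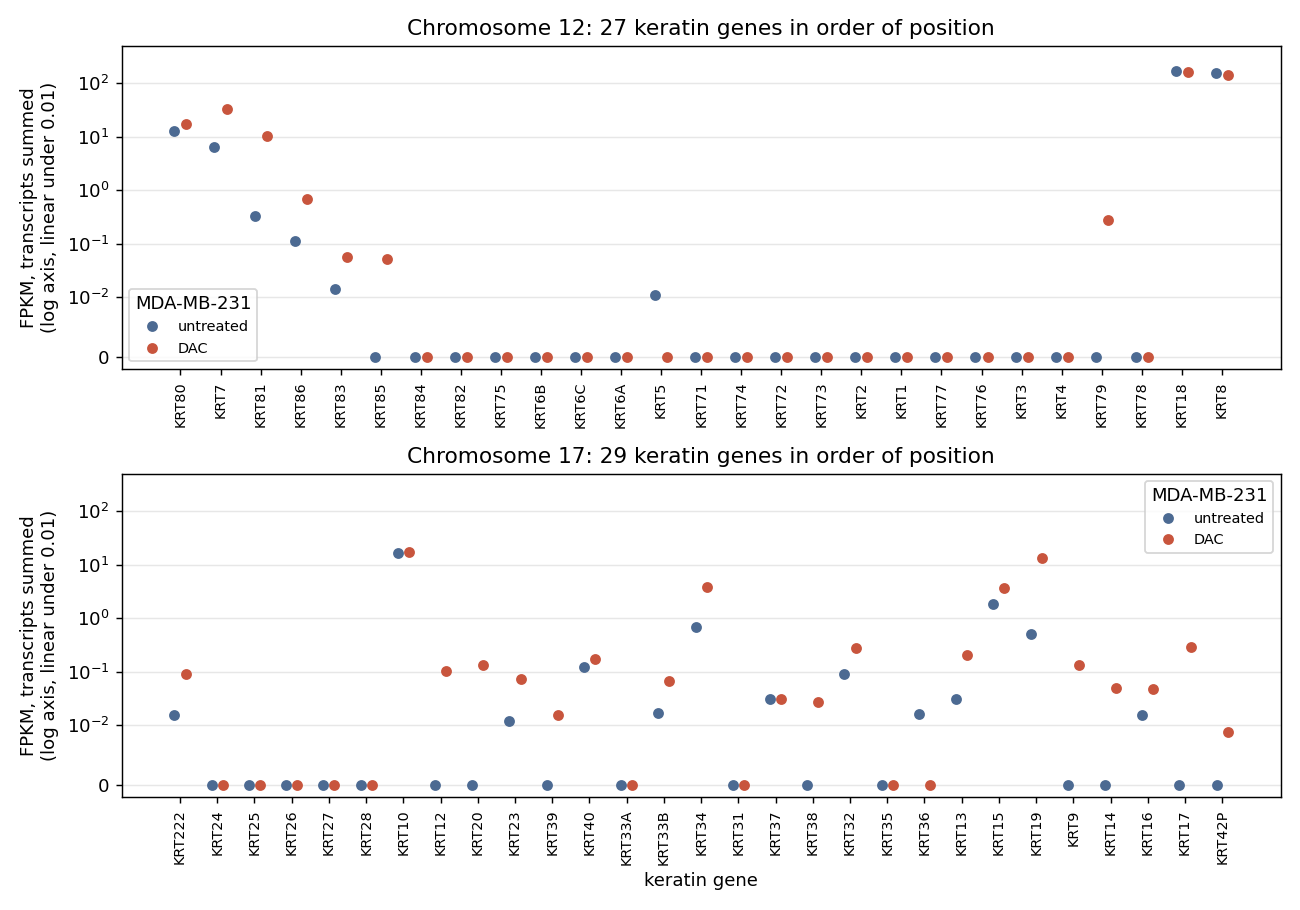
FPKM of each keratin in MDA-MB-231, transcripts of a symbol summed, with genes in order of position on chromosome 12 (27 genes, top) and chromosome 17 (29 genes, bottom). Blue points are the untreated and red points the DAC-treated library, 1 each, on a log axis that is linear under 0.01 FPKM. On chromosome 12 the genes from KRT84 to KRT4 sit at 0 apart from 1 read of KRT5. On chromosome 17 KRT19 has the widest gap between the points among the keratins that reached 1 FPKM. Lower keratins that start at 0, such as KRT17 with 0 and 0.293 FPKM, can have wider drawn gaps.

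In HMLER cells the keratins listed as higher after DAC were 6 of the 21 stratified-epithelial keratins (KRT5, KRT6A, KRT14, KRT16, KRT17 and KRT79), 2 of the 7 simple-epithelial keratins (KRT19 and KRT80) and 2 of the 17 hair keratins (KRT81 and KRT86). The table listed 10 of the 56 keratins (17.9%), against 7.85% of the 23617 symbols of the MDA-MB-231 table. Of 16 other intermediate filament genes, described below, 6 were listed too, so a share above that of all symbols was not particular to keratins. The 10 summed to 68.8 FPKM untreated and 569 FPKM after DAC. KRT81 was the highest of them, with 31.2 FPKM untreated and 178 FPKM after DAC (5.69-fold). KRT17 went from 6.33 to 118 FPKM (18.6-fold) and KRT6A from 0.759 to 117 FPKM (155-fold). These 3 made up most of the summed level after DAC. The basal pair was present before treatment, KRT14 at 11.6 and KRT5 at 9.85 FPKM, and reached 52.2 FPKM (4.51-fold) and 37.1 FPKM (3.77-fold). KRT16, a partner of KRT6A, differed less, from 2.36 to 5.82 FPKM (2.46-fold). KRT19 had the highest ratio of the 10, 171, from 0.190 to 32.5 FPKM. KRT79 went from 0.138 to 6.67 FPKM (48.3-fold), KRT86 from 2.16 to 9.06 FPKM (4.19-fold) and KRT80 from 4.26 to 12.7 FPKM (2.97-fold). For KRT19, KRT79 and KRT6A the untreated value was under 1 FPKM and the ratio rests on a low denominator whose reads are unknown. Of the windows of KRT6A 35.2% also occur in KRT6C, and KRT14, KRT16 and KRT17 share 21.7%, 21.8% and 14.6% of theirs with other keratin genes or pseudogenes, so values of this group may be divided between copies.

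KRT19 and KRT81 were more than 2-fold higher in both lines, 2 of the 9 keratins at 1 FPKM or more in MDA-MB-231, against 3.8% of the 12396 symbols. They are 2 of the 4 keratins past the threshold in MDA-MB-231 and 2 of the 10 listed in HMLER. Both passed the MDA-MB-231 filter only through the treated library, which favours a higher call. With 1 FPKM asked of both conditions the count higher in both lines was 0. KRT19 started low in both lines, at 0.518 FPKM in MDA-MB-231 and 0.190 FPKM in HMLER, and reached 13.5 and 32.5 FPKM. KRT81 started low in MDA-MB-231, at 0.330 FPKM, but at 31.2 FPKM in HMLER. KRT80 had a ratio of 2.97 in HMLER and 1.18 in MDA-MB-231. KRT6A, at 117 FPKM after DAC in HMLER, was at 0 in both MDA-MB-231 libraries, and KRT17, at 118 FPKM there, was at 0.293 FPKM in DAC-treated MDA-MB-231. The differences between the lines were not tested, and values were normalized separately in the 2 tables. KRT7 and KRT34, higher in MDA-MB-231, and KRT8, KRT18, KRT10 and KRT15 were not analysed in HMLER.

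**Figure D4:**
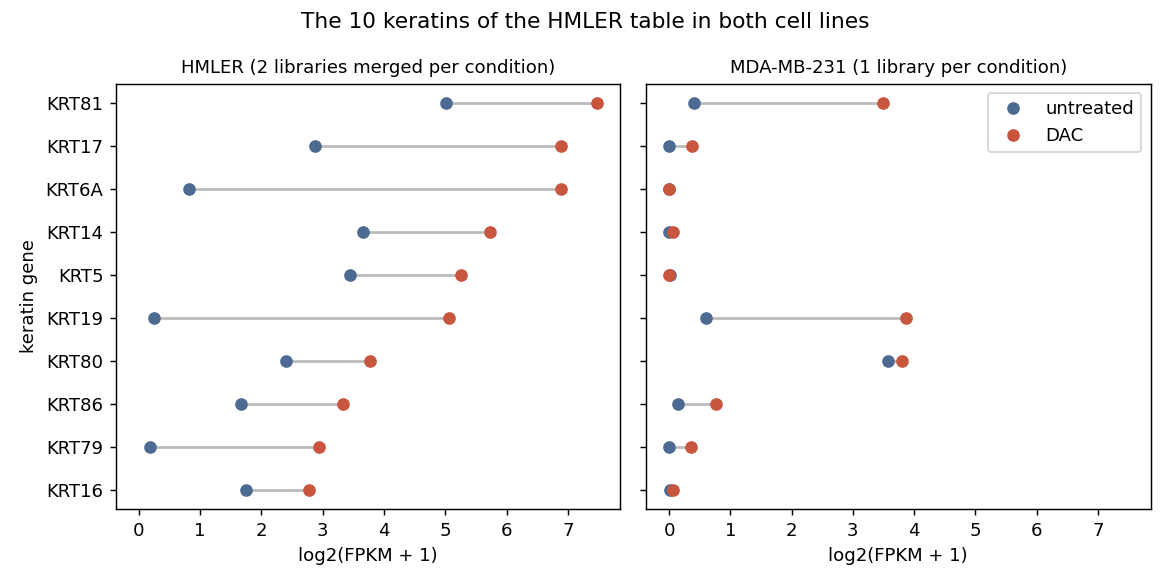
The 10 keratins of the HMLER table as log2(FPKM + 1) in HMLER (left, 2 libraries merged per condition) and MDA-MB-231 (right, 1 library per condition), untreated in blue and DAC in red, joined by a line. In HMLER all 10 are at or above 5.82 FPKM after DAC, while in MDA-MB-231 only KRT81, KRT19 and KRT80 exceed 1 FPKM.

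Genes that keratin filaments attach to or that act on keratin genes were counted in the same way, and beside the highest members of a list those past the threshold are named, which were chosen after their values were seen. The median log2 change with a pseudocount of 1 over all members of a list was 0.07 for desmosome genes, −0.27 for hemidesmosome genes, 0.10 for the regulators, 0.04 for other intermediate filaments, and 0 for cornified envelope and KRTAP genes, against 0 for all symbols and 0.00 for the 56 keratins. Over the 12396 symbols past the filter, as all hemidesmosome genes were, it was −0.09. Of 16 desmosome genes, which anchor keratin filaments at cell contacts, 9 reached 1 FPKM in MDA-MB-231, with 2 more than 2-fold higher and 2 lower, against 11.5% and 5.86% of all symbols past the filter. The 3 highest were PERP at 38.6 and 46.2 FPKM, DSG2 at 32.3 and 32.1 FPKM and PKP4 at 35.8 and 27.6 FPKM, none past the threshold. The linker JUP was higher, from 0.945 to 7.47 FPKM without overlap of its bounds, as was DSC2, from 0.754 to 1.62 FPKM, while PKP3 was lower, from 12.3 to 5.93 FPKM, as was EVPL, from 22.1 to 10.9 FPKM. The bounds of the 3 others overlapped, and JUP and DSC2 passed the filter only through the treated library. DSP, the desmoplakin that binds the filaments, went from 4.77 to 9.41 FPKM, a ratio of 1.97. All 9 hemidesmosome genes, whose products anchor filaments to the basement membrane, reached 1 FPKM, with 0 higher and 3 lower, against the same 11.5% and 5.86%. The 3 were PLEC, from 75.9 to 18.4 FPKM, ITGA6, from 44.6 to 20.1 FPKM, and COL17A1, from 6.09 to 2.80 FPKM, each with overlapping bounds. The HMLER table listed 4 of the 16 desmosome and 4 of the 9 hemidesmosome genes, against 7.85% of all symbols, PKP2, DSG3, EVPL and PERP of the former and DST, COL17A1, LAMA3 and LAMB3 of the latter. EVPL and COL17A1 thus had opposite signs in the lines, EVPL at 0.0619 and 1.86 FPKM and COL17A1 at 0.470 and 8.09 FPKM in HMLER, a difference that was not tested. Of 16 cornified envelope genes 1 (FLG, 2.23 and 1.80 FPKM) reached 1 FPKM in MDA-MB-231 and did not pass the threshold, and 3 were listed in HMLER, among them the envelope precursor IVL, from 0.103 to 1.80 FPKM.

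Of 17 transcriptional and splicing regulators of epithelial genes, 7 reached 1 FPKM in MDA-MB-231, with 4 higher and 0 lower, against 11.5% and 5.86% of symbols. The highest of them untreated was KLF4, at 18.6 and 13.6 FPKM. KLF5 went from 6.65 to 13.3 FPKM, GRHL1 from 0.697 to 1.97, ESRP2 from 0.378 to 3.89 and the luminal factor GATA3 from 0.0840 to 1.71 FPKM, each with bounds that overlapped. GRHL1, ESRP2 and GATA3 passed the filter only through the treated library, which favours a higher call. The HMLER list held 4 of the 17, against 7.85% of all symbols. These were KLF5, GRHL1 and ESRP2, and GRHL3, which stayed under 1 FPKM in MDA-MB-231. Of 91 KRTAP genes, which encode matrix proteins around hair keratin filaments, 5 reached 1 FPKM in MDA-MB-231 and all 5 were more than 2-fold higher, against 11.5% of symbols, KRTAP2-3 from 11.1 to 31.0 and KRTAP4-8 from 1.13 to 12.4 FPKM being the highest. KRTAP4-7, KRTAP4-9 and KRTAP4-11 were the others, at 0.160, 0.314 and 0.121 FPKM untreated. These passed the filter only through the treated library, so that a ratio above 2 was fixed by passing it. The bounds of KRTAP4-8 did not overlap and those of the other 4 did, and genes of this family resemble each other in sequence. None of the 91 was listed in HMLER, against 7.85% of all symbols.

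Of 16 other intermediate filament genes, 8 reached 1 FPKM in MDA-MB-231, with 2 higher and 2 lower, against 11.5% and 5.86% of symbols. SYNC was at 0.488 and 1.04 FPKM and BFSP1, a filament protein of the eye lens, at 0.835 and 1.94 FPKM, both with overlapping bounds. Both passed the filter only through the treated library. VIM, the vimentin of mesenchymal cells, stood far above every keratin at 3066 FPKM untreated and 1134 FPKM after DAC, and its bounds overlapped widely (0 to 10419 and 120 to 2147 FPKM). The lamins LMNA and LMNB2 followed, at 219 and 110.0 FPKM and at 209 and 112 FPKM, and LMNB1 went from 62.4 to 30.0 FPKM, with bounds that overlapped. The HMLER list held 6 of the 16 (DES, GFAP, PRPH, INA, NEFL and NEFM), against 7.85% of all symbols. Of 5 markers of cell state, 4 reached 1 FPKM in MDA-MB-231, with 2 higher and 1 lower, against 11.5% and 5.86% of symbols. The epithelial adhesion molecule EPCAM was at 7.90 and 9.78 FPKM, and CDH1 (E-cadherin) at 0 and 0.179 FPKM. CDH2 (N-cadherin) was at 0.0902 and 1.06 FPKM and FN1 (fibronectin) at 29.1 and 86.1 FPKM, both more than 2-fold higher with overlapping bounds. CDH2 passed the filter only through the treated library. EPCAM was the only 1 of the 5 listed in HMLER, from 0.450 to 2.17 FPKM. Of the 3 mesenchymal markers, VIM was thus lower and CDH2 and FN1 higher, and E-cadherin stayed under 1 FPKM in both libraries. The part of these genes in the keratin values was not tested.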

How the data were processed

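PolyA RNA of 6 libraries (2 untreated and 2 DAC-treated HMLER, 1 untreated and 1 DAC-treated MDA-MB-231) was sequenced after TruSeq preparation. The authors aligned reads to hg19 with TopHat2 and ran Cuffdiff on Galaxy for the deposited FPKM values of each RefSeq transcript. Versions and strand settings are not given in the sources used here. HMLER values were merged over both libraries of a condition and restricted by the authors to transcripts that rose, so no spread between HMLER libraries was computed. The tables also hold the authors' fold changes, test statistics, p-values and q-values of DAC against untreated, which were not used.

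The transcript with the largest summed FPKM represented each symbol. A gene was called at a DAC/untreated ratio above 2, or its inverse, with 1 FPKM or more in at least 1 library, without a pseudocount. Genes low before treatment could pass through the treated library alone, which favours a higher call. Log2 changes were taken after adding 1 FPKM to either value, so that those of low genes come out too small. Reads were inferred as FPKM times effective length (length minus 204 bases) over the fixed step. All 781 and 911 low values used lay within 0.05 of a whole read (10% by chance), as did 50 of 51 single-transcript keratins, KRT10 being the exception. Read ratios took exact intervals. Where the untreated count was 0, a ratio to a floor of 3 counts was given besides. A count test over all genes was not attempted because both conditions had 1 library. The shared 50-base windows came from GENCODE transcripts on GRCh37. Steps were tested on simulated counts, with changes planted only in genes at 5 FPKM or more. That test does not cover genes that start under 1 FPKM, or variation between cultures.

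Named were all keratins at 1 FPKM or more in MDA-MB-231 or listed in HMLER, luminal and basal keratins whatever their level, and up to 3 highest members of each other list. Members and lists were chosen with earlier results of these data known. Alternatives changed the filter, pseudocount, scaling, transcript choice, bounds, status and the placing of KRT18. Software was pandas 2.3.3, scipy 1.17.1, numpy 2.4.6 and matplotlib 3.10.9 under Python 3.11.15.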

Additional observations from a re-analysis of the deposited data

How the results depend on the processing

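The 4 keratins higher in MDA-MB-231 became 22 with no filter on low values, the additional genes resting on the few reads described above, and 1 (KRT7) when 1 FPKM was asked of both conditions, since KRT19, KRT81 and KRT34 were below it before treatment. Under the other alternatives the count was 3 to 5, KRT15 being added by division by the median ratio and KRT80 when any transcript could make the call. The count of lower keratins, 0, became 2 with no filter (KRT5 and KRT36, at 1 and 0 reads each) and 1 when any transcript could make the call (KRT8). The count higher in both lines, 2, became 7 with no filter and 0 with 1 FPKM asked of both conditions, and was 2 or 3 otherwise. The HMLER count of 10 became 7 with 1 FPKM asked of both conditions and was 10 under the other alternatives run for it (no filter, a filter of 5 FPKM, both pseudocounts and both other transcript choices). Of these alternatives, no filter and both other transcript choices could not change the count. The HMLER list holds only transcripts already past the threshold and the filter, with a single transcript for each listed keratin. Division by the median ratio, bounds and status were not run for HMLER. The summed ratio of chromosome 17, 1.97, became 2.17 after division by the median ratio, 6.65 without KRT10 and 1.05 with KRT18 counted there. That of chromosome 12, 1.14, became 1.06 with all transcripts summed, 1.26 after division by the median ratio and 1.52 without KRT18, whether dropped or counted with chromosome 17. Leaving out HMLER replicates was not run because the table has 1 merged value per condition. No paired analysis was possible because no comparison had replicate values. Without replicates, the intervals cover counting error only, and keratins with fewer than 10 reads in both libraries gave no firm ratio.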
